A study of Mus musculus with 6 samples.

Results

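Myoblast fusion and membrane repair genes were followed across 6 Affymetrix mouse arrays of C2C12 cells. The set holds 9 genes: the metalloprotease gene Adam12, the junctional adhesion genes Jam2 and Jam3, the ferlin genes Myof and Dysf, the tetraspanin genes Cd9 and Cd81, the exchange factor gene Dock1 and the nephrin gene Nphs1. Members were the probe sets that the platform annotation assigns to 1 of these genes alone, whatever their values, which gave 17 of the 45033 probe sets tested and 9 of 18192 genes. Of the 9 genes, 5 had several probe sets and 4 had 1.

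C2C12 is a mouse myoblast line that stops dividing and forms multinucleated myotubes when serum is lowered. The PRDM2 knockdown group had 3 arrays of cells transfected with a short hairpin RNA (shRNA) against PRDM2, an enzyme that places methyl groups on lysine 9 of histone H3. The control group had 3 arrays of cells transfected with an shRNA against GFP. All cells of both groups had spent 28 hours in Dulbecco's modified Eagle medium with 2% horse serum. The labels number the arrays of each group 1 to 3 as biological replicates, and do not say whether a group is 1 clone, how transfected cells were selected or which part of PRDM2 the shRNA targets.

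Myoblasts fuse after they have left the cell cycle: they recognise each other through adhesion molecules, rearrange cortical actin at the contact, and merge their membranes through the muscle-specific proteins myomaker and myomerger. Adam12, Jam2, Jam3, Nphs1, Cd9 and Cd81 act at the cell surface, and Dock1 activates the small GTPase Rac1 behind the contact. Ferlins are large C2-domain membrane proteins, of which myoferlin takes part in fusion and dysferlin in the resealing of torn muscle membrane.

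The RefSeq promoter table (build GRCm38.p6, 250 bases before to 50 after each listed start) matched 6 of the 9 genes, with 7 promoters. Adam12, Jam2 and Jam3 had no entry. Dysf had 2 listed starts, and its single probe set is of the kind designed to read several transcripts of 1 gene, so the intensities below do not tell the 2 starts apart. Both Dysf promoters are shown for that reason, with the Cd9 promoter beside them as the one of the 7 with the most E-boxes. Capitals mark E-boxes, the letters CANNTG on either strand, which myogenic bHLH factors such as MyoD can bind. The Dysf windows are chr6:84008348-84008647 and chr6:84019136-84019435 on the plus strand, and the Cd9 window is chr6:125494711-125495010 on the minus strand.
Dysf, upstream start: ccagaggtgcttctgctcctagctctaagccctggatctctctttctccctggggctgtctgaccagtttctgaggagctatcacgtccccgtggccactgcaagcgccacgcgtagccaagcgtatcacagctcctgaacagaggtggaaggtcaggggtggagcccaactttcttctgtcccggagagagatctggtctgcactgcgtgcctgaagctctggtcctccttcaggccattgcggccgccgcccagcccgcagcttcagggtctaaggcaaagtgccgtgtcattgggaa
Dysf, downstream start: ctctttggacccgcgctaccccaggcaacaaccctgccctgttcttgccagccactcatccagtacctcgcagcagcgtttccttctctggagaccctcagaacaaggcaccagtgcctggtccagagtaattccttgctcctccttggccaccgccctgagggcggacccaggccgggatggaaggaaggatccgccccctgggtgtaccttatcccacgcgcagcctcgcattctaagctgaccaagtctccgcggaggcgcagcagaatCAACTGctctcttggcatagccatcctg
Cd9: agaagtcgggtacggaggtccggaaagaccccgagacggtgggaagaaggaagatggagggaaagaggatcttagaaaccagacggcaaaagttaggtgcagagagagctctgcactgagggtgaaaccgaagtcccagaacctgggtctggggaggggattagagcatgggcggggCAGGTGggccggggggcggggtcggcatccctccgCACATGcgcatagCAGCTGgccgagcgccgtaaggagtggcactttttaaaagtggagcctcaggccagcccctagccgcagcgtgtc
The upstream Dysf promoter held no E-box, and the downstream one held CAACTG, whose first base lies 22 bases after the start. The Cd9 promoter held 3 E-boxes, CAGGTG at 73, CACATG at 38 and CAGCTG at 25 bases before the start. E-boxes stood in the promoters of 4 of the 6 matched genes, the others being Cd81 and Dock1 with 1 each, while 72.31% of all 32851 promoters of the table held at least 1. These are matches of letters only.

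Median intensity ranged from 10.7 to 11.4 units. Differentiating muscle was recognisable on every array. The summed intensity of 9 muscle markers was 17432 to 18741 units on the knockdown arrays and 15764 to 18223 units on the control arrays. Of 5 endothelial markers 4 (Pecam1, Cdh5, Tek and Kdr) read at most 16 units on every array, as did Ptprc, Cd68 and Cd3e of 5 measured haematopoietic markers, both measured fat cell markers and 3 of 4 neuronal markers. The exceptions were Csf1r, at 34.5 to 134 units on the knockdown arrays and 66.9 to 121 units on the control arrays, and Emcn, Adgre1 and Map2. These read up to 52.6, 36.6 and 22.6 units. The brightest probe set of the target, Prdm2, read 88.6, 65.5 and 45.4 units in knockdown replicates 1, 2 and 3. It read 57.5, 73.9 and 43.9 units in control replicates 1, 2 and 3. Log2 fold changes, knockdown minus control, of the 3 Prdm2 probe sets were 0.07, 0.12 and 0.15 with all 6 arrays (SE 0.18, 0.09 and 0.19). Without control replicate 2 they were 0.24, 0.10 and 0.27 (SE 0.14, 0.11 and 0.20). No Prdm2 probe set was lower on average in knockdown, so target mRNA gave no check of the group labels. Knockdown is therefore used as the label of the group, and depletion of PRDM2 was not tested.

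The array labelled control replicate 2 lay nearest to knockdown replicate 2. Arrays were compared over the brightest 25% of probe sets by the median absolute deviation of the log2 difference, scaled to estimate an SD. Between these 2 arrays it was 0.08, the smallest of all 15 pairs. Control replicate 2 stood at 0.38 from control replicate 1 and 0.37 from control replicate 3. For 13 of the 17 member probe sets, the value of control replicate 2 lay closer to the average of the knockdown arrays than to that of control replicates 1 and 3, against 65.6% of all probe sets. The knockdown average includes knockdown replicate 2, which favours closeness in the members and in all probe sets alike. The labels do not say whether these 2 arrays share an RNA or whether a label was exchanged, and neither was tested, so control means over 3 arrays and fits of all 6 rest on the labels as given. Fold changes are therefore given with all 6 arrays and without control replicate 2. The comparison without it was chosen with earlier results of these data known, so its p-values are optimistic.

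Both Adam12 probe sets and 1 of Jam3 had the largest positive differences in knockdown among the members, on the log2(intensity + 16) scale. With all 6 arrays these were about 1.8-fold (Adam12 1421172_at), 1.6-fold (Adam12 1421171_at) and 1.4-fold (Jam3 1423503_at). Without control replicate 2 they were about 2.1-fold, 1.8-fold and 1.6-fold. With bulk RNA, a difference in the number of expressing cells and one in RNA per cell cannot be told apart. Neither Adam12 nor Jam3 passed the threshold of 0.05 in these 2 fits. With all 6 arrays, 0 of the 17 member probe sets passed at an adjusted p of 0.05 (limma, Benjamini-Hochberg over all probe sets), as did 0 of all 45033, a background of 0% in both directions. At an unadjusted p under 0.05 there were 3 member probe sets, all higher in knockdown (both of Adam12 and 1 of Jam3), where 1.13% of all probe sets were higher and 1.82% lower at that level. Groups did not overlap for 2 of the 17 as higher and 1 as lower, where 3.18% and 4.06% of all probe sets did not. Of the 17, 9 had a positive and 8 a negative log2 fold change, where 50% of all probe sets lay on each side, and the median was 0.02, beside -2.9e-05 over all probe sets.

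Without control replicate 2, again 0 of the 17 passed, where 0.266% of all probe sets passed as higher and 0.262% as lower in knockdown. At an unadjusted p under 0.05 there were 4 (both of Adam12, 1 of Jam3 and that of Dysf), all higher, where 5.09% of all probe sets were higher and 5.16% lower at that level. Groups did not overlap for 6 of the 17 as higher (both of Adam12, 1 each of Jam3 and Myof, Dysf and Cd81) and for 2 as lower (both Jam2), where 12.9% and 13.5% of all probe sets did not. The Myof probe set among these was 1452455_at, which read at most 3.5 units on any array, and the brighter one of Myof overlapped. The median log2 fold change of the 17 was 7.9e-05, beside -0.0032 over all probe sets. The replicate numbers paired the arrays by their deviations from the group means. With the replicate number as a block and both arrays numbered 2 out of the comparison, 3 of the 17 passed as higher (both of Adam12 and 1 of Jam3) and 0 as lower, where 0.899% of all probe sets passed as higher and 0.693% as lower. That fit compares 2 pairs of arrays, numbers 1 and 3, without the close pair numbered 2. By the scaled median absolute deviation of the log2 difference, control replicate 3 was the nearest control to knockdown replicate 3 (0.20). It was also nearer to knockdown replicate 1 (0.28) than control replicate 1 was (0.31), so the pairing of number 1 is uncertain. The blocked fit too was chosen with the data seen, so its p-values are optimistic. Its SEs ran only from 0.09 to 0.12 over the 17 member probe sets. With so few arrays these SEs rest mainly on the variance pooled over all probe sets, not on each probe set's own spread.

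**Figure D1:**
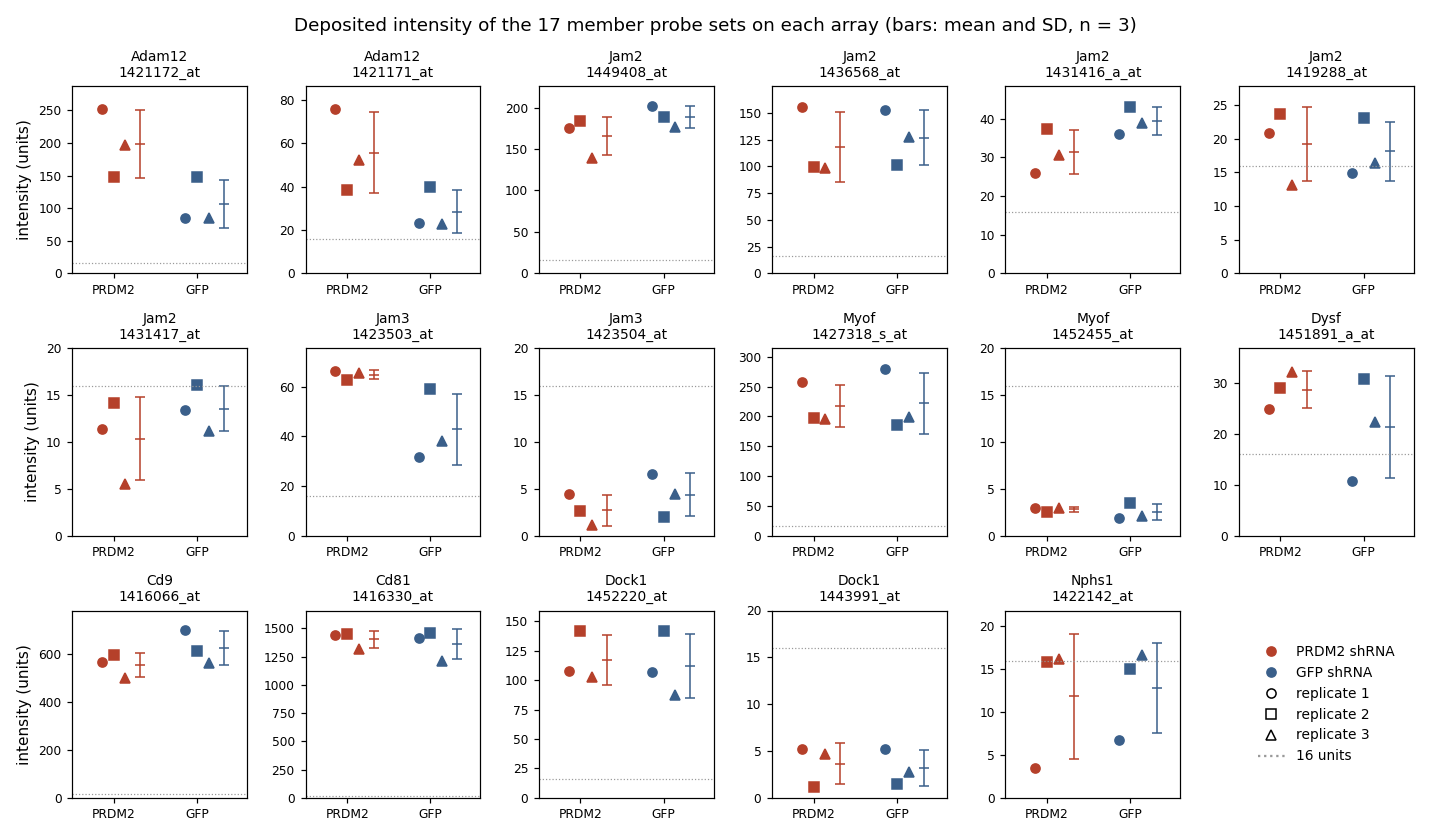
Deposited intensity, in units on a linear axis from 0, of each of the 17 member probe sets on the 3 PRDM2 shRNA arrays (left in each panel) and the 3 GFP shRNA arrays (right), with symbols for the replicate number and bars for the mean and SD of 3 arrays. In both Adam12 panels and the brighter Jam3 panel the squares of both groups (replicate 2) sit close together, while the circle and triangle of the GFP shRNA group lie below those of the PRDM2 shRNA group.

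Adam12 encodes a membrane-anchored disintegrin and metalloprotease of regenerating muscle and other mesenchymal cells. Its probe set 1421172_at read 252, 148 and 197 units in knockdown replicates 1, 2 and 3, against 85.4, 149 and 85.0 units in control replicates 1, 2 and 3. Control replicates 1 and 3 were low, and control replicate 2 lay level with knockdown replicate 2. It was just above that array in deposited units and just below it after quantile normalization, so the groups did not overlap on the normalized log2 scale. The means were 199 ± 51.9 units in knockdown and 106 ± 36.6 units in control (SD, n = 3 each). On the log2(intensity + 16) scale the difference, knockdown minus control, was 0.84 (SE 0.23), with a 95% interval from 0.29 to 1.39 and an adjusted p = 1.0 with limma. The difference was 1.05 (SE 0.19, adjusted p = 0.099) without control replicate 2, and in the blocked fit without the arrays numbered 2 it was 1.24 (SE 0.10, adjusted p = 0.011).

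The second Adam12 probe set, 1421171_at, read 75.7, 38.7 and 52.5 units in knockdown replicates 1, 2 and 3, against 23.2, 39.8 and 22.6 units in control replicates 1, 2 and 3. In deposited units it ordered the 6 arrays exactly as the first one did, and the groups overlapped through control replicate 2 alone. Its log2 fold change was 0.70 (SE 0.21, adjusted p = 1.0 with limma), and 0.85 (SE 0.21, adjusted p = 0.21) without control replicate 2. In the blocked fit it was 1.05 (SE 0.11, adjusted p = 0.017). Across the 6 arrays the log2 values of the 2 Adam12 probe sets correlated at r = 0.98, a description over arrays that include the close pair numbered 2.

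The difference between same-numbered arrays was near 0 for number 2 and large for numbers 1 and 3. For probe set 1421172_at, knockdown minus control was 1.35 log2 units for the arrays numbered 1, 0.04 for those numbered 2 and 1.12 for those numbered 3. Over all 17 member probe sets the largest absolute difference was 1.35 for number 1, 0.14 for number 2 and 1.12 for number 3. The median absolute difference of the members was 0.21, 0.04 and 0.24 for numbers 1, 2 and 3, beside 0.13, 0.07 and 0.10 over all probe sets.

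**Figure D2:**
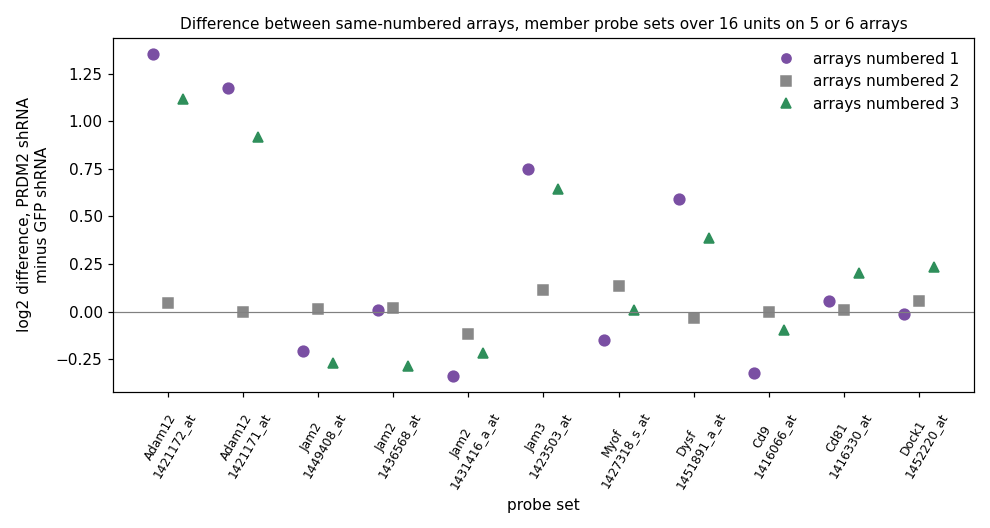
Log2 difference, PRDM2 shRNA minus GFP shRNA, between arrays of the same number for the 11 member probe sets that read over 16 units on 5 or 6 arrays. Squares (number 2) lie within 0.14 of 0 throughout, and only Adam12, Jam3 and Dysf have circles and triangles (numbers 1 and 3) above 0.35.

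Jam3 and Jam2 encode immunoglobulin-type adhesion molecules that bind each other across cell contacts. Jam3 probe set 1423503_at read 66.2, 62.8 and 65.5 units in knockdown replicates 1, 2 and 3, against 31.5, 58.9 and 38.2 units in control replicates 1, 2 and 3. The 3 knockdown arrays lay close together and above every control array, the nearest being control replicate 2. The means were 64.8 ± 1.81 units in knockdown and 42.9 ± 14.3 units in control (SD, n = 3 each). The log2 fold change was 0.50 (SE 0.15) with a 95% interval from 0.15 to 0.86 (adjusted p = 1.0 with limma), and 0.66 (SE 0.10, adjusted p = 0.071) without control replicate 2. In the blocked fit it was 0.70 (SE 0.09, adjusted p = 0.036). Tested with 1 probe set per gene instead of every probe set, the value without control replicate 2 passed, at an adjusted p of 0.046 with limma. Under the other scalings and offsets it did not pass, at adjusted p-values from 0.066 to 0.31 with limma.

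The other Jam3 probe set, 1423504_at, did not follow it. It read 4.4, 2.6 and 1.1 units in knockdown replicates 1, 2 and 3, against 6.6, 2.0 and 4.4 units in control replicates 1, 2 and 3. All 6 values lie under the 16 units added before taking logarithms, and the groups overlapped. Its log2 fold change was -0.12 (SE 0.11), and -0.21 (SE 0.11) without control replicate 2. Across the arrays the log2 values of the 2 Jam3 probe sets correlated at r = -0.81, with all values of one of them near the floor of the scale.

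Jam2 had 5 probe sets, none of which passed in any fit. The values of 1449408_at were 175, 183 and 139 units in knockdown replicates 1, 2 and 3, against 202, 189 and 176 units in control replicates 1, 2 and 3, and the groups overlapped. For 1431416_a_at they were 26.0, 37.3 and 30.6 units in knockdown, against 36.0, 43.1 and 38.9 units in control, in the same order of replicates. After quantile normalization this was the single member probe set whose knockdown arrays all lay below every control array, where 4.06% of all probe sets did so. The log2 fold change there was -0.22 (SE 0.10), and its 95% interval ran from -0.46 to 0.02. Without control replicate 2 it was -0.20 (SE 0.12).

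Probe set 1436568_at of Jam2 read 156, 99.1 and 98.9 units in knockdown replicates 1, 2 and 3, against 152, 101 and 127 units in control replicates 1, 2 and 3. The groups overlapped, with arrays of number 1 and number 2 level between groups and number 3 lower in knockdown. The remaining Jam2 probe sets, 1419288_at and 1431417_at, read between 5.5 and 23.7 units. Over the 5 probe sets the log2 fold changes ran from -0.22 to 0.04 with all 6 arrays, 1 positive and 4 negative. Leaving out control replicate 2, they ran from -0.24 to 0.14, again 1 positive and 4 negative.

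Dysf, the gene of dysferlin, read 24.9, 29.0 and 32.3 units in knockdown replicates 1, 2 and 3, against 10.8, 30.8 and 22.4 units in control replicates 1, 2 and 3. Control replicate 1 was the low array and the only one under 16 units, and control replicate 2 lay inside the knockdown range. With all 6 arrays the log2 fold change was 0.32 (SE 0.20), and its 95% interval ran from -0.15 to 0.78. The value was 0.48 without control replicate 2 (SE 0.17, 95% interval 0.06 to 0.90, adjusted p = 0.40 with limma), and in the blocked fit 0.49 (SE 0.10, adjusted p = 0.098). It was 0.11 when control replicate 1 was left out instead.

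Myof, the gene of myoferlin, did not share this. Its probe set 1427318_s_at read 258, 198 and 195 units in knockdown replicates 1, 2 and 3, against 280.3, 186 and 199.9 units in control replicates 1, 2 and 3. Replicate 1 was the highest array of both groups. The log2 fold change was -9.3e-05 with a 95% interval from -0.37 to 0.37, and -0.13 (SE 0.14) without control replicate 2. The other Myof probe set, 1452455_at, read between 1.9 and 3.5 units on every array. The name of the first probe set marks it as one whose probes may also match related transcripts.

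The tetraspanins Cd9 and Cd81 organise adhesion proteins in the membrane. Their log2 values spanned 0.32 and 0.23 units over the 6 arrays, against 1.35 for Adam12. Cd9 read 569, 599 and 502 units in knockdown replicates 1, 2 and 3, against 703, 616 and 563 units in control replicates 1, 2 and 3. Its log2 fold change was -0.14 (95% interval -0.34 to 0.06), and -0.16 (95% interval -0.40 to 0.08) without control replicate 2. Cd81 read 1441, 1454 and 1315 units in knockdown replicates 1, 2 and 3, against 1412, 1462 and 1215 units in control replicates 1, 2 and 3. Its log2 fold change was 0.09 (95% interval -0.11 to 0.29), and 0.15 (95% interval -0.05 to 0.35) without control replicate 2. With all 6 arrays the groups overlapped in both, and the intervals exclude a change of 0.50, the point estimate of Jam3 1423503_at, in either direction. The interval of that estimate, from 0.15 to 0.86, overlaps the interval of Cd81.

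Dock1 probe set 1452220_at read 108, 142 and 102 units in knockdown replicates 1, 2 and 3, against 107, 142 and 87.1 units in control replicates 1, 2 and 3. Values followed the replicate number, with number 2 highest in both groups. The log2 fold change was 0.09 (SE 0.16), and 0.23 (SE 0.14, adjusted p = 0.71 with limma) without control replicate 2. The second Dock1 probe set, 1443991_at, read between 1.1 and 5.2 units.

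Nphs1, whose protein nephrin is best known from the kidney filter, read 3.5, 15.8 and 16.2 units in knockdown replicates 1, 2 and 3, against 6.8, 15.0 and 16.6 units in control replicates 1, 2 and 3. Replicate 1 was the low array of both groups. The log2 fold change was -0.07 with a 95% interval from -0.62 to 0.49, the widest of the members with all 6 arrays, and 7.9e-05 (95% interval -0.64 to 0.64) without control replicate 2.

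**Figure D3:**
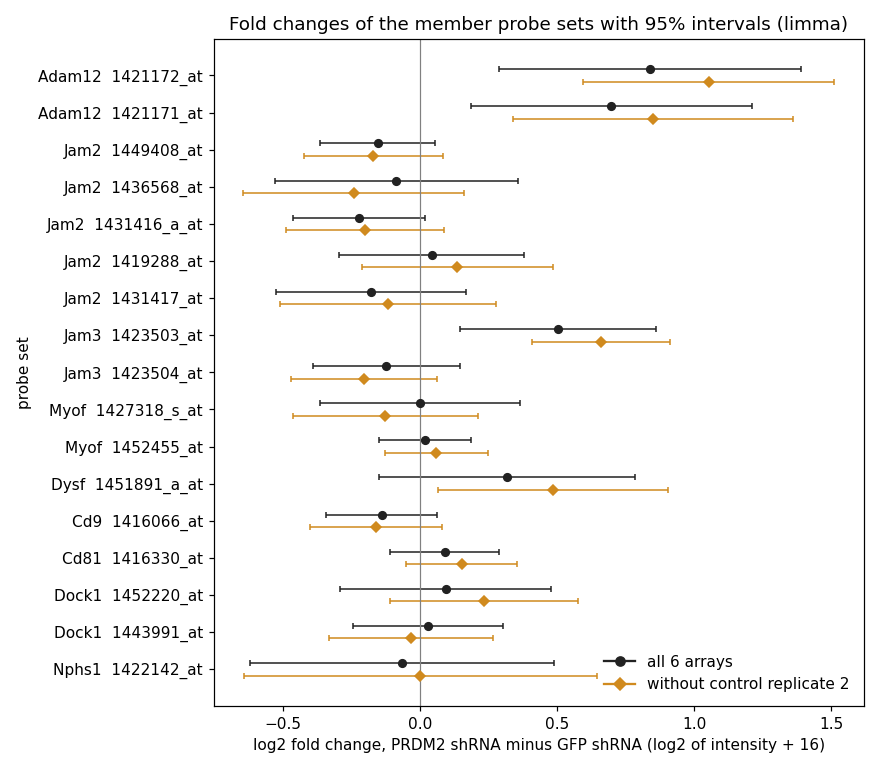
Log2 fold changes, PRDM2 shRNA minus GFP shRNA on the log2(intensity + 16) scale, of the 17 member probe sets, with 95% intervals from limma; circles use all 6 arrays and diamonds leave out control replicate 2. The intervals lie above 0 in both fits for both Adam12 probe sets and for Jam3 1423503_at, and for Dysf in the fit without control replicate 2 only; none of these passed the adjusted threshold.

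Other genes of the same processes were taken from 5 lists, each gene read by its brightest probe set. With all 6 arrays 0 genes of any list passed (limma). In the fit without control replicate 2 each list is read beside a background of 0.456% of all genes higher and 0.407% lower in knockdown, and a median log2 fold change of -0.01 over all genes. Of 27 measured other fusion genes 0 passed in either direction (median 0.01). Those of smallest p were the integrin gene Itga4, at -0.99 (SE 0.14, adjusted p = 0.056) with 1 of 5 probe sets of opposite sign, and the hyaluronan receptor gene Cd44, at -1.06 (SE 0.14, adjusted p = 0.052). Itga4 stood at -0.67 (SE 0.27) and Cd44 at -0.69 (SE 0.31) with all 6 arrays.

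The genes of both muscle-specific fusion proteins, on the list of other fusion genes, were picked out after their values were seen. Mymk, the gene of myomaker, read 1124, 1189 and 1045 units in knockdown replicates 1, 2 and 3, against 659, 1232 and 899.6 units in control replicates 1, 2 and 3. Its log2 fold change was 0.34 (SE 0.23), and 0.56 (SE 0.17, adjusted p = 0.29 with limma) without control replicate 2. Mymx, the gene of myomerger, read 648, 640 and 459 units in knockdown replicates 1, 2 and 3, against 258, 655 and 406 units in control replicates 1, 2 and 3. It stood at 0.49 (SE 0.31) with all 6 arrays, and at 0.80 (SE 0.23, adjusted p = 0.27 with limma) without control replicate 2. For both genes control replicate 1 was the lowest array, as it was for Dysf.

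Of 27 measured genes of the actin and exchange factor machinery 1 passed without control replicate 2, as higher (median 0.02). Pak3, a kinase activated by Rac1 and Cdc42, read 89.3, 64.2 and 55.2 units in knockdown replicates 1, 2 and 3, against 15.0, 69.2 and 15.6 units in control replicates 1, 2 and 3. It rose by 1.44 on the log2 scale without control replicate 2 (SE 0.15, adjusted p = 0.025 with limma), and all 4 of its probe sets had that sign. Its value was 0.98 (SE 0.38) with all 6 arrays.

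Among 29 measured other membrane repair genes 1 passed as higher and 0 as lower without control replicate 2 (median -0.02). Cav3, the muscle caveolin that binds dysferlin, read 290.2, 231 and 153 units in knockdown replicates 1, 2 and 3, against 17.7, 234 and 23.6 units in control replicates 1, 2 and 3. Control replicates 1 and 3 were low. Control replicate 2 lay inside the knockdown range, as it did for Dysf, where only control replicate 1 was low. Cav3 rose by 2.68 on the log2 scale without control replicate 2 (SE 0.20, adjusted p = 0.012 with limma), and with all 6 arrays its value was 1.77 (SE 0.73).

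Of 21 measured tetraspanins and JAM relatives 0 passed as higher and 1 as lower without control replicate 2 (median 0.06). Igsf5, a junctional adhesion molecule relative, read 12.6, 20.3 and 14.1 units in knockdown replicates 1, 2 and 3, against 130, 20.3 and 89.5 units in control replicates 1, 2 and 3. It fell by 2.00 on the log2 scale without control replicate 2 (SE 0.16, adjusted p = 0.013 with limma), and with all 6 arrays its value was -1.40 (SE 0.48).

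Of 22 measured ADAM relatives, partners and inhibitors 0 passed as higher and 2 as lower without control replicate 2 (median 0.07). Igfbp5, an IGF-binding protein that ADAM12 can cleave, read 908, 1161 and 957 units in knockdown replicates 1, 2 and 3, against 3229, 1171 and 2620 units in control replicates 1, 2 and 3. It fell by 1.50 on the log2 scale without control replicate 2 (SE 0.15, adjusted p = 0.025 with limma), and with all 6 arrays its value was -1.06 (SE 0.36). Timp2, a metalloprotease inhibitor, fell by 1.01 without control replicate 2 (SE 0.13, adjusted p = 0.049 with limma), with 1 of 6 probe sets of opposite sign, and with all 6 arrays its value was -0.67 (SE 0.29, adjusted p = 1.0). Its probe set read 836 to 929 units on the knockdown arrays and 889 to 1990 units on the control arrays.

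**Figure D4:**
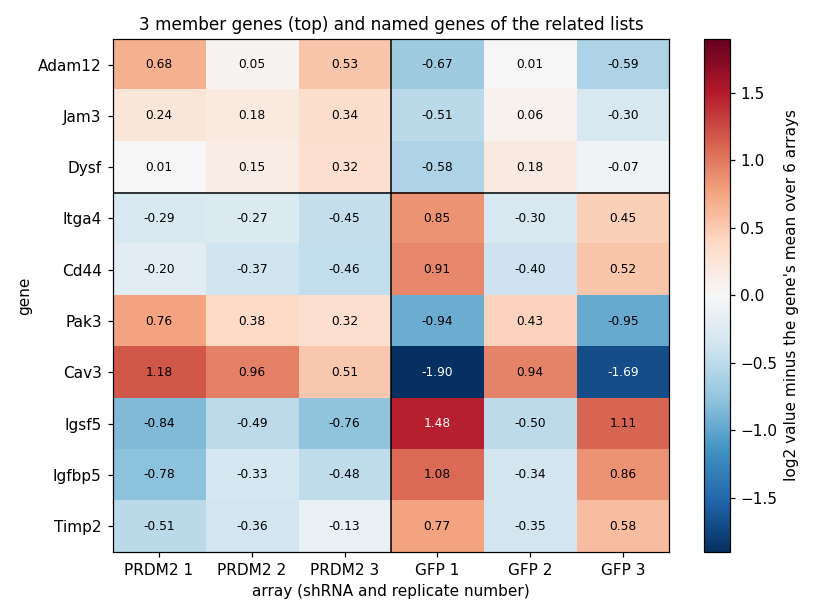
Log2 value minus the gene's own mean over the 6 arrays for the member genes Adam12 (1421172_at), Jam3 (1423503_at) and Dysf, above the line, and for the named genes of the related lists, below it, with PRDM2 shRNA arrays left and GFP shRNA arrays right. In the 7 related genes GFP replicates 1 and 3 have one sign and the other 4 arrays the opposite sign, with the values printed in the cells. These genes were named by the fit without GFP replicate 2, which favours such a split among the arrays of that fit. GFP replicate 2 was left out of that fit, but it was normalized with the other arrays and lay nearest to PRDM2 replicate 2, which was in it. Its sign in these genes is therefore not independent of the choice.

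The genes whose pattern over the 6 arrays was nearest to that of Adam12 were found among 10927 genes by the root mean square difference of log2 values, each centred on its own mean. For probe set 1421172_at these were Actl6b at 0.08, Il17b at 0.09 and Gper1 at 0.11 log2 units. For 1421171_at they were Gnai1 at 0.09, Klf13 at 0.11 and Gper1 at 0.12. No other member probe set varied by 1 log2 unit or more over the arrays, which was the condition for this comparison.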

How the data were processed

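Members and gene lists were chosen with earlier results of these data known. Total RNA (8 ug per sample) was hybridised to 1 Affymetrix array per sample, and samples were grouped by their titles. The deposited table gives 1 linear intensity per probe set and array. The submitters' processing notes name GCOS and PLIER, and neither their versions nor how arrays were normalized against each other is given in the sources used here. Of 45101 probe sets, 64 controls and 4 whose value in one column equalled the gene's Entrez number were left out. The platform annotation gave 1 gene for 34941 of the rest, several for 932 and none for 9160.

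Values were taken as log2(intensity + 16), which understates the change of dim genes, and quantile-normalized over the 6 arrays, since upper quartiles differed by 0.15 log2 units. All 45033 probe sets were fitted in R 4.3.3, using limma 3.58.1, by an unblocked two-sided moderated test of knockdown minus control. P-values were adjusted over all of them by Benjamini-Hochberg, and 0.05 was the threshold. Precision is set by having only 3 arrays a group; the labels call them biological replicates and do not say whether they are separate cultures. Each array's departure from its group mean was set against that of the array of the same number, and these correlated at 0.32, 0.60 and 0.62 for numbers 1, 2 and 3. All lie above 0.1, so the numbers were treated as paired, on the data alone and with no statement in the labels. Departures cancel out within a group, so the 3 correlations are not independent. By the scaled median absolute deviation of the log2 difference, knockdown replicate 1 stood at 0.31 from control replicate 1 and at 0.28 from control replicate 3.

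All 17 member probe sets are reported. From the other lists, up to 3 genes past the threshold in either fit are named or, with none, the 2 of smallest p without control replicate 2; Mymk and Mymx fall outside this rule. The 2 unblocked fits were tested on simulated data with independent noise. The blocked fit was not, and no close pair of arrays was simulated.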

Additional observations from a re-analysis of the deposited data

How the results depend on the processing

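Of 34 member log2 fold changes (17 probe sets in each of the 2 fits), 23 kept their sign in every alternative run and 11 did not. No member passed with all 6 arrays under the other scalings, offsets, filter, variance models or the replicate block, or when any 1 array was left out. With both arrays numbered 2 left out, 1 member probe set (Adam12 1421172_at) passed, among 25 probe sets higher and 32 lower. A replicate block added to that gave 3 members, among 405 higher and 312 lower. Leaving out 1 array gave between 0 and 120 probe sets higher and between 0 and 118 lower, with calls only without control replicate 2. With a replicate block but only control replicate 2 left out, knockdown replicate 2 has no partner, so 3 members, 405 probe sets higher and 312 lower passed again; a block changed no other member's call. In that 5-array comparison 120 probe sets were higher and 118 lower. There 1 member passed with 1 probe set per gene (Jam3, with 163 genes higher and 128 lower), 1 with trended and robust variances (Adam12, with 286 probe sets higher and 242 lower) and 1 with array weights (Adam12, with 189 and 180). Counts were 57 and 75 with the deposited scaling, 58 and 69 with median centring, 2 and 9 with an offset of 1, 2 and 12 with an offset of 64, and 187 and 153 among probe sets at or above the median mean, each with 0 members. Leaving out 1 further array gave 0 to 81 higher and 5 to 43 lower, with 0 or 1 members (Adam12, without knockdown replicate 2). Where 1 control array was left, its spread was assumed to be that of the other group. The causes of these differences in count were not tested.

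Signs turned only in members near 0 or near the floor. With all 6 arrays and 1 array left out in turn, Dock1 1443991_at ran from -0.033 (without control replicate 2) to 0.12, Dock1 1452220_at from -0.028 to 0.23, Jam2 1419288_at from -0.051 to 0.17, Jam2 1436568_at from -0.24 to 0.023, Myof 1427318_s_at from -0.13 to 0.15, Myof 1452455_at from -0.0058 to 0.059 and Nphs1 from -0.22 to 0.18. An offset of 1 moved Myof 1427318_s_at to 8.9e-04. Without control replicate 2, a further array left out gave -0.12 to 0.059 for Dock1 1443991_at, -0.23 to 0.029 for Jam2 1431417_at, -0.30 to 0.047 for Myof 1427318_s_at and -0.25 to 0.25 for Nphs1. In that comparison Nphs1 stood at -0.0076 with the deposited scaling, -0.0018 with median centring, -0.095 with an offset of 1 and -0.12 with the replicate block, and Dock1 1443991_at at 0.059 with the block. The offset changed the size of fold changes without control replicate 2, also for the brighter Adam12 probe set. Adam12 1421172_at was 1.17 with an offset of 1 and 0.79 with 64, Jam3 1423503_at 0.86 and 0.38, and Dysf 0.84 and 0.21.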
